A study of Mus musculus with 45 samples.

Results

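Hepa1-6 is an established mouse liver tumour line. Its RNA was measured after 48 hours with DMSO, the solvent, or with a compound for which the labels give no other name than stk. The 6 libraries described here were chosen by their column names in the table of the drug experiment, 3 with DMSO and 3 with stk, out of 45 labelled samples in the series. Both groups carry the wild-type genotype label (WT), with no transgene or hairpin. The labels list 6 Hepa1-6 samples with stk, of which 3 have a matching column. CT26, a mouse colon carcinoma line given the same 2 treatments (3 libraries each), serves only to show where Hepa1-6 differs. The title of the study is about SOAT1, an enzyme that esterifies cholesterol, and about signalling by 20(S)-hydroxycholesterol through the receptor GPR132. The labels do not say what stk acts on or at which dose it was used, nor that the replicates were separate cultures, so p-values measure the spread between these libraries, which may be technical. All samples of the drug experiment carry 1 batch date, so no group is split between dates.

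Hepatocytes make most plasma proteins, including albumin, apolipoproteins and complement, under a network of liver transcription factors. They also hold inducible systems for foreign compounds, metals and sterols. In the first, a ligand activates the aryl hydrocarbon receptor, which binds short DNA elements and induces Cyp1a1. Metallothioneins are induced by zinc through the factor MTF1. Free cholesterol and oxysterols lower the SREBP2-driven synthesis genes and, through the receptor LXR, raise export pumps such as ABCA1.

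Levels are FPKM, in which the fragments of a gene are divided by its transcript length and by the library's total of mapped fragments. A fold change is the difference of the group means of log2(FPKM + 1), stk minus DMSO, which understates changes of genes with low FPKM. A gene is called where the adjusted p of limma over all genes tested was under 0.05. FPKM sums lay between 324154.2 and 327069.8 per library with DMSO and between 314827 and 319897.1 with stk, so the groups do not overlap in this total, and 11285 to 11407 genes reached 1 FPKM. Read totals are unknown. Relative depth, estimated from the lowest FPKM steps, was 0.93 to 1.057 times that of DMSO replicate 1. On the first principal component (30.3% of the variance) the DMSO libraries lay between -12.8 and -8.21 and the stk libraries between 8.85 and 11.5. On the next one (19.3%) stk replicate 3, at -14.5, lay apart from stk replicates 1 and 2 at 9.81 and 7.03. Results are therefore also given without that library where they move.

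The liver label was checked against marker lists. Alb was at 163, 156 and 157 FPKM in the DMSO libraries and 156, 163 and 157 with stk, and Afp, the fetal counterpart of albumin, was at 105 ± 7.38 and 111 ± 3.24 FPKM (SD, n = 3). The liver factor Hnf4a was at 40.5 ± 2.13 and 45.0 ± 2.13 FPKM. Of 39 secreted hepatocyte proteins, however, 25 were below 1 FPKM in all 6 libraries, so the line keeps only some of the products of the mature cell. All 10 endothelial markers and 13 of 15 leukocyte markers were below 1 FPKM in every library, with summed levels of 0.1 to 0.13 FPKM and 5.38 to 8.14 FPKM. Of 12 fibroblast markers 10 were below 1 FPKM. Their sum (197 to 199 FPKM with DMSO, 184 to 187 with stk) was almost all Dcn, at 197 FPKM with DMSO and 184 with stk. Intestinal markers summed to 240 to 248 FPKM with DMSO and 232 to 233 with stk, from 3 well expressed genes, Cdh17 at 112 and 104 FPKM, Krt20 at 70.2 and 64.4 FPKM and Vil1 at 56.4 and 58.1 FPKM.

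The comparison asks which genes respond to stk in this line. Most called changes were under 2-fold. Of 11426 genes tested, 175 were called (1.53%), 78 higher with stk (0.683%) and 97 lower (0.849%), and 5 of them changed at least 2-fold on this scale. These 5 include the small nucleolar RNA Snora33 and the pseudogene ENSMUSG00000115407. Both were under 1 FPKM in every stk library and entered the test through the DMSO libraries alone. The median fold change was 0.31 among the higher calls and -0.42 among the lower ones. The median over all tested genes was 0.0029, and 5% to 95% of genes lay between -0.29 and 0.24. At an unadjusted p under 0.05 there were 2713 genes. The groups did not overlap for 30.8% of all tested genes, 16.2% higher with stk and 14.6% lower, which is the background for counts of members that do not overlap. For counts of called list members the background is 0.683% higher and 0.849% lower. With the median of each library set equal, 74 genes were called higher and 161 lower, so that the higher share was 31.5% in place of 44.6%. The count depended on the fit. It was 928 in a joint model with the CT26 libraries, 473 at a minimum of 5 FPKM, 92 among protein-coding genes alone, 17 without the mean-variance trend and 4 with no filter on low values. Leaving out 1 library left between 8 calls (when either DMSO replicate 2 or stk replicate 2 was dropped) and 59 (when stk replicate 1 was dropped). There were 22 calls when stk replicate 3 was dropped, 21 without DMSO replicate 1 and 17 without DMSO replicate 3. Myadm, Cyp1a1, C1s1 and Id2 were called in 6 of these 6 fits, Dnajb1 and Rpl22l1 in 4, Gm6020 in 3 and Gas2l3 and Rpl39 in 2. Slc25a13, Ppp1r9b, Tbca, Rpl11, Src and Gm10180 were called in 1, and Dnal1 and Snora33 in 1 of the 3 fits that tested them. All other called genes described here were called in 0 of these fits, and each kept its direction in every fit that tested it. The copies Gm3699, Rpl39-ps and Gm8355 were not followed across these fits.

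**Figure D1:**
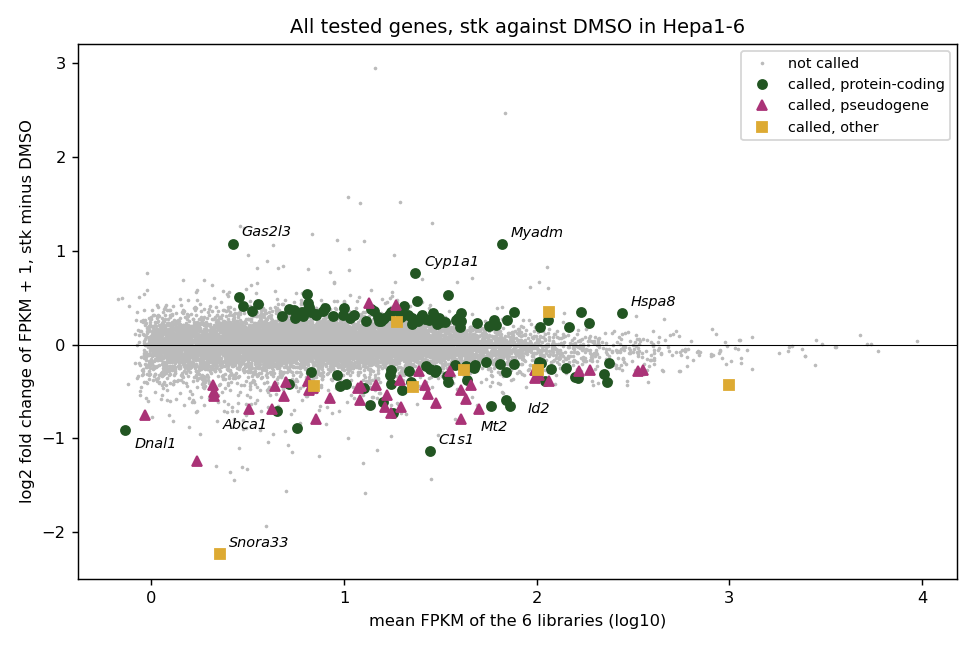
Each point is 1 of the 11426 tested genes, with the mean FPKM of the 6 libraries on a log10 axis and the log2 fold change of stk against DMSO. Called genes are coloured by class. Protein-coding calls lie on both sides of 0, pseudogene calls almost all below it (2 higher, 43 lower).

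The call with the smallest p was Myadm, which encodes a membrane protein of the MAL family that helps organise membrane rafts. Its level was 43.8, 41.0 and 41.6 FPKM with DMSO and 87.4, 89.1 and 92.4 FPKM with stk. The groups are far apart, and no library of either group strays from its own. Myadm (ENSMUSG00000068566, GRCm38 chromosome 7, 3289080 to 3300442) rose 2.13-fold in FPKM, with a log2 fold change of 1.07 (SE 0.0398, limma adjusted p = 0.000491). Gas2l3, a linker of actin and microtubules that acts in cytokinesis, rose from low levels. Its FPKM were 1.17, 1.2 and 1.67 with DMSO and 3.35, 3.98 and 4.51 with stk, a log2 fold change of 1.07 (SE 0.121, limma adjusted p = 0.0292; chromosome 10, 89408823 to 89443967). The spread within both groups is wide for Gas2l3, and the groups still do not overlap.

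On the lower side, C1s1 led the protein-coding genes. It encodes a C1s protease, which starts the classical complement cascade. C1s1 stood at 35.9, 39.2 and 40.8 FPKM with DMSO and at 16.4, 17.9 and 16.9 FPKM with stk. All 3 stk libraries lie below 18 FPKM and all DMSO libraries above 35. The log2 fold change was -1.13 (SE 0.0587, limma adjusted p = 0.00148; ENSMUSG00000038521, chromosome 6, 124530345 to 124542359). C1s1 was the only complement gene called among 12 tested of 34 listed, whose median fold change was 0.08. Its neighbour C1ra, which encodes the partner protease of the same complex, had 5.40, 6.09 and 6.04 FPKM with DMSO and 5.57, 7.51 and 7.48 with stk. The C1ra groups overlap, and the difference of 0.19 did not pass (limma adjusted p = 0.347). C3, the central complement protein, was at 18.3 ± 0.49 and 20.7 ± 0.375 FPKM (0.17, limma adjusted p = 0.0738).

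Id2 encodes an inhibitor of basic helix-loop-helix transcription factors and is a target of BMP signalling. It had 87.4, 89.3 and 89.7 FPKM with DMSO and 54.5, 56.8 and 57.1 FPKM with stk, 2 tight and separate groups. Id2 (chromosome 12, 25093799 to 25097140) fell, with a log2 fold change of -0.65 (SE 0.0335, limma adjusted p = 0.00148). Its relatives did not follow to that extent. Id1 was at 150 ± 1.5 and 135 ± 2.51 FPKM (-0.15, limma adjusted p = 0.0544), and Id3 at 70.6 ± 2.33 and 71.1 ± 3.42 FPKM (0.01, limma adjusted p = 0.926). Tgif2, a repressor of SMAD-driven transcription, rose from 5.04 ± 0.363 to 7.77 ± 0.378 FPKM (0.54, limma adjusted p = 0.0352). Over the list of Id genes and BMP or TGF-beta feedback genes, 1 of 21 tested members rose and 1 fell, and the median fold change was 0.11.

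**Figure D2:**
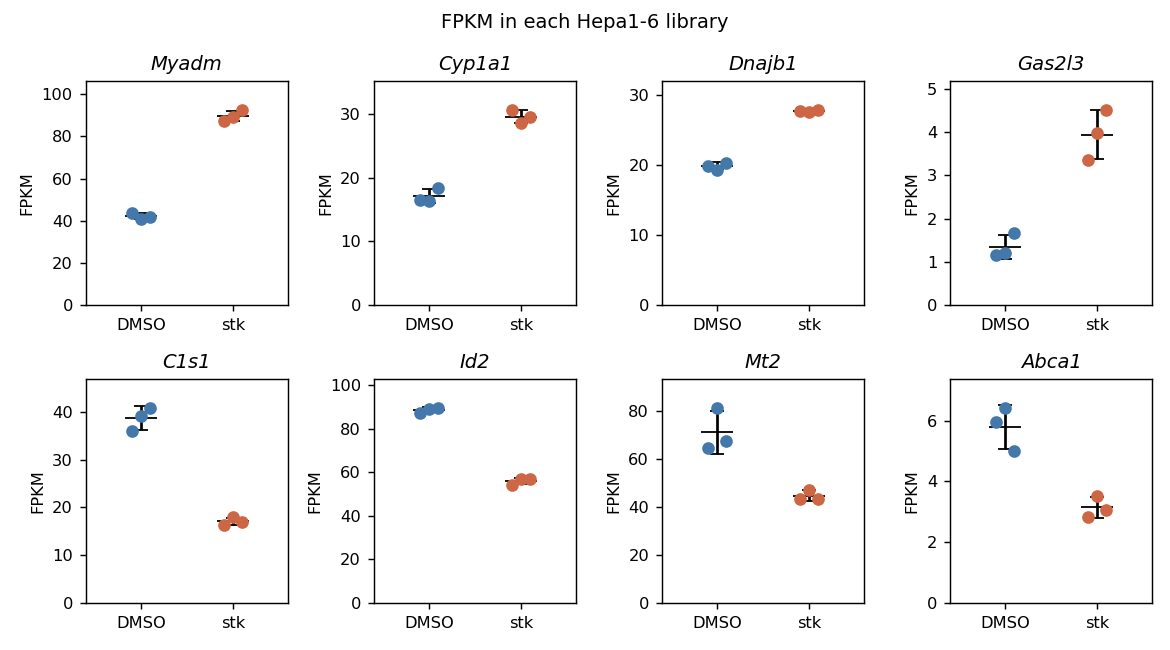
FPKM of 8 called genes in each of the 6 Hepa1-6 libraries, with DMSO on the left and stk on the right of each panel. Points are libraries, horizontal bars group means and whiskers 1 SD (n = 3), and the groups do not overlap in any panel.

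Among genes for foreign compounds, Cyp1a1 rose. It encodes the cytochrome P450 that is the standard readout of the aryl hydrocarbon receptor. The 250 bases before its RefSeq start (GRCm38.p6, chr9:57697363-57697612, plus strand) are shown because Cyp1a1 is the receptor's best known target, with matches to the core of the xenobiotic response element, GCGTG on either strand, in capitals.
Cyp1a1 promoter: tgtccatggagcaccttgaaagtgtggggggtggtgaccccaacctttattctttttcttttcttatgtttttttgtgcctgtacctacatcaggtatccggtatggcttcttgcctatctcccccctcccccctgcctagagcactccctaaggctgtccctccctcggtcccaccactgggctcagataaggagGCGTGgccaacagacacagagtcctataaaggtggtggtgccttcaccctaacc
The window holds 1 match, at -54 from the start. Of 32851 RefSeq promoter windows of the same length, 28.2% hold at least 1, so the match is a description of the sequence and not a mapped site.

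Cyp1a1 was at 16.5, 16.3 and 18.4 FPKM with DMSO and at 30.5, 28.6 and 29.5 FPKM with stk, again without overlap. The rise was 1.73-fold in FPKM, with a log2 fold change of 0.76 (SE 0.0554, limma adjusted p = 0.0107). No other of the 10 tested genes of the receptor's axis was called, and their median was 0.02. The receptor gene Ahr itself was at 22.2 ± 0.608 and 20.4 ± 1.06 FPKM (-0.12, limma adjusted p = 0.21). Tiparp, another direct target and a brake on the receptor, was at 11 ± 0.603 and 10.4 ± 0.102 FPKM (-0.08, limma adjusted p = 0.378). In the wider list of xenobiotic metabolism and efflux, 0 of 16 tested genes were called by limma. Its members with the smallest p were Gstm1, a glutathione transferase (26.2 and 32.3 FPKM, fold change 0.29, adjusted p = 0.0613), and the transporter Abcc4 (0.17, adjusted p = 0.0842). Targets of NRF2, the factor for oxidative stress, gave 0 calls among 24 with a median of 0.07. Nqo1, a target of both factors, was at 2.23 ± 0.245 and 2.59 ± 0.596 FPKM (0.14, limma adjusted p = 0.559).

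Metallothionein 2 fell. Mt2 encodes a small protein that binds zinc and copper and is induced through metal response elements. Its 250 bases before the start (GRCm38.p6, chr8:94172368-94172617, plus strand) are shown with matches to the search pattern TGCNCNC on either strand in capitals. The pattern takes any base at N, so a match need not be a metal response element.
Mt2 promoter: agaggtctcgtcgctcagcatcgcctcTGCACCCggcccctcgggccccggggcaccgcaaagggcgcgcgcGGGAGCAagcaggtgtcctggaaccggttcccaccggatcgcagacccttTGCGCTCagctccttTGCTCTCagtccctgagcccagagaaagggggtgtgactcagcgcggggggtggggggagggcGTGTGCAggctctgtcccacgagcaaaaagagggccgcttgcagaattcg
There are 5 matches, at -223, -178, -128, -113 and -50, and the last overlaps a match to GCGTG. At least 1 match to TGCNCNC occurs in 44.4% of promoter windows.

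Mt2 stood at 64.6, 81.3 and 67.5 FPKM with DMSO and at 43.4, 47.2 and 43.2 FPKM with stk. DMSO replicate 2 is the highest of its group, and no DMSO library reaches down to the stk libraries. The log2 fold change was -0.66 (SE 0.0884, limma adjusted p = 0.042). Mt1, the adjacent gene with the same induction, was at 63.7, 81.1 and 71.3 FPKM with DMSO and 62.4, 64.3 and 59.5 with stk, where the groups overlap (-0.21, limma adjusted p = 0.207). The zinc exporter Slc30a1, a further target of MTF1, was at 4.20 and 3.28 FPKM (-0.27, limma adjusted p = 0.147). Of 16 tested genes of the metallothionein and zinc transporter list, Mt2 alone was called, and 0 were called with the trend with exon length removed.

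Heat shock genes divided into 3 that rose and many that did not. Dnajb1, an HSP40 co-chaperone, had 19.9, 19.3 and 20.3 FPKM with DMSO and 27.7, 27.6 and 27.8 FPKM with stk, a rise of 0.46 (SE 0.0365, limma adjusted p = 0.0145; chromosome 8, 83608193 to 83612653). Its stk libraries agree closely and lie well above the DMSO libraries. Hspa8, the constitutive HSP70, rose from 254, 230 and 250 FPKM to 317, 314 and 295 FPKM (0.33, SE 0.0497, limma adjusted p = 0.0422). Hsph1, an HSP110 that exchanges nucleotide on HSP70, rose from 36.0, 35.3 and 35.7 FPKM to 46.9, 42.6 and 45.9 FPKM (0.33, SE 0.0443, limma adjusted p = 0.042). These 3 proteins work together in 1 chaperone cycle. The promoter window of Hsph1 is printed because it holds a match to the core of the heat shock element, TTCNNGAA, which reads the same on both strands (GRCm38.p6, chr5:149636337-149636586, minus strand, match in capitals).
Hsph1 promoter: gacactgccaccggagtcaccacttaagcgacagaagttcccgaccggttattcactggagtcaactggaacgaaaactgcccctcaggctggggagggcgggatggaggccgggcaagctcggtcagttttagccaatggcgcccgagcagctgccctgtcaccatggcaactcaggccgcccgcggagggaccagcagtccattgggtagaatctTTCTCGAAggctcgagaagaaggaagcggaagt
The match begins at -33, and 7.2% of promoter windows hold one. Neither of the RefSeq windows of Dnajb1 holds these letters, and Hspa8 had no RefSeq window to search.

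Of 29 tested heat shock genes, 3 rose, 0 fell, and the median was -0.03 (0.02 after quantile normalization). Over all tested genes 0.683% were called higher. With 1 library left out, 0 or 1 of them were called. Hsp90aa1, the inducible HSP90, was at 235 ± 2.47 and 222 ± 6.17 FPKM (-0.08, limma adjusted p = 0.198). Hspe1, the mitochondrial HSP10 gene, was at 184 and 159 FPKM (-0.21, limma adjusted p = 0.0906). The chaperones of the endoplasmic reticulum gave 0 calls among 20, with a median of 0.02.

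Several signalling and transcription genes rose by small amounts. In the AP-1 and immediate early list, 3 of 28 tested genes rose (against 0.683% over all genes), with a list median of 0.07. Jun, a core subunit of AP-1, had 7.13, 6.56 and 6.48 FPKM with DMSO and 9.34, 8.41 and 8.88 with stk (0.35, SE 0.0593, limma adjusted p = 0.0468). Fosl1, its FRA1 partner, rose from 35.1 ± 1.54 to 42.8 ± 1.18 FPKM (0.28, limma adjusted p = 0.0443), and Jdp2, a repressor that pairs with JUN, from 5.38 ± 0.349 to 7.65 ± 0.67 FPKM (0.44, limma adjusted p = 0.0482). Myc, with 35.2 and 44.9 FPKM, did not pass (0.34, limma adjusted p = 0.0767). Of 28 tested genes of the NF-kB pathway, 2 rose (against 0.683% over all genes) and the median was 0.11. Bcl3, a nuclear IκB-like cofactor, had 12.4, 12.4 and 12.5 FPKM with DMSO and 16.5, 15.8 and 16.4 with stk (0.36, SE 0.0389, limma adjusted p = 0.0265). Csf1, the macrophage growth factor, rose from 26.2 ± 1.26 to 32.6 ± 0.677 FPKM (0.30, limma adjusted p = 0.0422). Groups did not overlap for 10 NF-kB members, all higher with stk (35.7% of those tested against 16.2% over all genes). The share was larger in other lists. In the AP-1 list 12 members were higher without overlap (42.9%) and 1 lower. The Wnt and actin lists described below had 11 each on the higher side (55.0% and 52.4%), and 0 and 1 on the lower.

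In the list of Wnt targets and feedback genes, 2 of 20 rose (against 0.683% over all genes), with a median of 0.15. They were Ctnnb1, which encodes beta-catenin itself, and Nkd1, a feedback inhibitor of the pathway. Ctnnb1 was at 104, 104 and 106 FPKM with DMSO and at 127, 122 and 127 with stk (0.26, SE 0.0306, limma adjusted p = 0.0306). Nkd1 was at 23, 22.3 and 22.2 FPKM with DMSO and 28.8, 28.1 and 28.1 with stk (0.32, SE 0.0355, limma adjusted p = 0.0292). The values of both genes are close within each group and do not overlap between them. Other targets did not pass, among them the cyclin gene Ccnd1 (239 and 265 FPKM, 0.15, limma adjusted p = 0.0529) and Notum, a secreted Wnt inhibitor (3.45 and 4.38 FPKM, 0.27, limma adjusted p = 0.0626). None of the 7 calls in the AP-1, NF-kB and Wnt lists remained with any 1 library left out, although every one of these genes kept its direction.

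Actin-linked genes showed 3 rises among 21 tested members (against 0.683% over all genes), and a median of 0.14. Ppp1r9b, the scaffold spinophilin that ties protein phosphatase 1 to actin, had 17.7, 16.8 and 17.8 FPKM with DMSO and 23.8, 23.7 and 22.8 with stk (0.41, SE 0.0415, limma adjusted p = 0.0222). Tln1, which encodes talin and links integrins to actin, rose from 64.0 ± 2.35 to 76.8 ± 1.1 FPKM (0.26, limma adjusted p = 0.0422). Myh9, the heavy chain of non-muscle myosin IIA, rose from 57.1 ± 0.804 to 66.0 ± 1.05 FPKM (0.21, limma adjusted p = 0.0438). With the trend with exon length removed, 1 of the 3 was called, and with 1 library left out 0 or 1. Src, which encodes the tyrosine kinase at adhesion sites, fell from 39.7 ± 1.88 to 29.8 ± 1.26 FPKM (-0.40, SE 0.0502, limma adjusted p = 0.0394). Of the tubulin list, 1 of 18 fell, the tubulin folding cofactor gene Tbca (76.6 ± 0.402 and 62.1 ± 1.91 FPKM, -0.30, limma adjusted p = 0.0292).

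Further leading protein-coding calls have varied roles. Rises were found for the membrane-binding protein gene Cpne1 (28.1 and 41.0 FPKM, 0.53), the phosphoinositide phosphatase gene Inpp5j (2.19 and 3.51 FPKM, 0.51) and the RNA-binding protein gene Igf2bp2 (2.89 and 4.23 FPKM, 0.43). Camta2, a transcription activator, rose by 0.41 and the scaffold gene Mpp2 by 0.40. Their limma adjusted p-values lay between 0.0409 and 0.0438. Falls were found for Dnal1, an axonemal dynein light chain (1.26 and 0.202 FPKM, -0.91, limma adjusted p = 0.0253), and for the phosphatase gene Ptp4a1 (23.5 and 16.5 FPKM, -0.49, limma adjusted p = 0.0422). Dnal1 was under 1 FPKM in every stk library and entered the test through its DMSO libraries alone. Slc25a13, which encodes citrin, the aspartate and glutamate carrier of liver mitochondria, had 18.9, 18.9 and 20.6 FPKM with DMSO and 11.5, 13.0 and 12.9 with stk. These groups are separate, and the fall of 0.61 passed (SE 0.0622, limma adjusted p = 0.0222). It was the only call among 20 genes of the urea cycle and mitochondrial carriers.

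Sterol genes bear on the subject of the title. Soat1 was nearly silent in this line, at 0.131, 0.158 and 0.129 FPKM with DMSO and 0.038, 0.091 and 0.114 with stk. Soat2, the second enzyme, was at 0.157, 0.162 and 0.277 FPKM with DMSO and 0.409, 0.39 and 0.332 with stk. Gpr132 was at 0.61 ± 0.259 and 0.489 ± 0.16 FPKM. Cyp11a1, which cleaves the side chain of cholesterol, lay between 0.416 and 0.65 FPKM in the 6 libraries. All 4 genes were under the minimum for testing, so no fold change is given for them. In CT26 the DMSO means of Soat1 and Soat2 were 12.3 and 13.3 FPKM, so neither gene was near silent there.

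Abca1, the pump that exports cholesterol, fell. It had 5.95, 6.42 and 4.99 FPKM with DMSO and 2.83, 3.53 and 3.07 FPKM with stk, without overlap (-0.71, SE 0.102, limma adjusted p = 0.0422; chromosome 4, 53030787 to 53159895). The call was lost in each of the 6 fits without 1 library (largest adjusted p 0.123). Abca1 was the only call among 11 tested genes of cholesterol efflux and LXR targets, whose median was 0.05. Srebf1, another LXR target, was at 21 ± 1.64 and 21.2 ± 1.13 FPKM (0.01, limma adjusted p = 0.925).

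In cholesterol biosynthesis, 1 of 20 tested genes fell, 0 rose, and the median was -0.13. Msmo1, a methyl sterol oxidase late in the pathway, had 26.5, 25.7 and 24.2 FPKM with DMSO and 18.2, 19.2 and 19.9 with stk (-0.40, SE 0.0508, limma adjusted p = 0.0409). Other enzymes of the pathway had lower means without passing, such as Cyp51 (27.4 and 22.7 FPKM, -0.26, limma adjusted p = 0.06), Idi1 (-0.27, adjusted p = 0.0808) and Hmgcs1 (-0.29, adjusted p = 0.116). Groups did not overlap for 10 of the 20 on the lower side (14.6% over all genes). Sqle, which encodes squalene epoxidase, was at 43.2 ± 1.07 and 43.1 ± 0.72 FPKM, with overlapping groups (limma adjusted p = 0.996). Uptake and control genes gave 0 calls among 17, with a median of 0.03. Esterification and lipid droplet genes (10 tested), fatty acid synthesis (17) and oxysterol enzymes and receptors (12) gave 0 calls each, with medians of 0.01, 0.02 and -0.03.

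Liver identity genes were not called. Of 16 tested liver transcription factors, 15 had a fold change above 0 and 0 were called by limma (median 0.16, against 0.0029 over all genes). Of all tested protein-coding genes, 46.2% had a fold change below 0. Groups did not overlap for 7 of the 16, all higher with stk (43.8% against 16.2% over all genes). The smallest p belonged to Onecut1 (1.30 and 2.02 FPKM, 0.39, limma adjusted p = 0.0529). For Foxa2 the DMSO libraries themselves differed, with 24.5, 28.2 and 8.79 FPKM against 29.1, 28.6 and 33.9 with stk, so its fold change of 0.70 (limma adjusted p = 0.325) rests on DMSO replicate 3. The 14 tested secreted proteins had a median of -0.004 and 0 calls, among them Apob (16.4 and 12.6 FPKM, -0.36, limma adjusted p = 0.111).

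Among proliferation genes, 2 fell. Of 28 tested mitosis genes, 24 had a fold change below 0 (against 46.2% of all protein-coding genes), the median was -0.07, and 1 fell. This was Ccnb1, the mitotic cyclin, with 50.7, 47.2 and 50.05 FPKM with DMSO and 39.0, 39.5 and 35.1 with stk (-0.37, SE 0.0555, limma adjusted p = 0.0422). Its kinase partner Cdk1 was at 43.0 and 35.7 FPKM (-0.26, limma adjusted p = 0.0628), while Mki67, a marker of cycling cells, was at 48.5 ± 1.86 and 47.8 ± 3.86 FPKM (-0.02, adjusted p = 0.868). Among 31 replication genes, Pcna, the sliding clamp of DNA polymerases, fell from 129 ± 3.23 to 108 ± 4.58 FPKM (-0.26, limma adjusted p = 0.0443), and the median was -0.06. Cyclins and CDK inhibitors (21 tested) and p53 targets (22) gave 0 calls, with medians of 0.06 and 0.05 and 12 and 14 members above 0.

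Ribosomal protein genes were the largest group of lower calls among the lists. Of 83 tested, 81 had a fold change below 0, 7 fell and 0 rose, and the median was -0.17. Of all protein-coding genes 46.2% had a fold change below 0, and 0.849% of all tested genes were called lower. In 61 of the ribosomal protein genes (73.5%) the stk libraries all lay below the DMSO libraries, against 14.6% over all genes. Fold changes also differed by level. Of 349 protein-coding genes at 100 FPKM or more, which include ribosomal protein genes, 69.1% were below 0, 10 fell and 6 rose. Of 1972 under 3 FPKM, 44.0% were below 0, 1 fell and 3 rose. The part of level in these calls was not tested. Rpl22l1, a paralogue of the ribosomal protein gene Rpl22, had 21.6, 22.6 and 23.9 FPKM with DMSO and 14.0, 13.6 and 12.3 with stk (-0.73, SE 0.0609, limma adjusted p = 0.017). Rpl39 had 83.2, 82.0 and 83.0 FPKM with DMSO and 60.7, 55.9 and 48.3 with stk (-0.59, SE 0.0785, limma adjusted p = 0.042). For both genes every stk library lies far below every DMSO library. Rpl11 (-0.39), Rps18 (-0.35), Rpl10a (-0.34), Rps27a (-0.31) and Rpl5 (-0.25) also fell, with limma adjusted p-values between 0.0394 and 0.0482. The count of 7 depended on the setting. It was 21 at a minimum of 5 FPKM, 14 after quantile normalization, 13 after median scaling and 34 in a joint model of both lines. It was 4 among protein-coding genes alone, 1 without the mean-variance trend and 0 with no filter. It was 3 without stk replicate 3 and lay between 0 and 6 over all fits that drop 1 library. The list median stayed below 0 in each of these fits. Stk replicate 3 had the lowest level of Rpl39 and Rps18 and the highest stk level of Rpl11.

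Other housekeeping groups held fewer calls. Of 74 nuclear genes of the respiratory chain, 61 had a fold change below 0 (against 46.2% of all protein-coding genes). Of the 74, 3 fell (against 0.849% over all genes) and the median was -0.13. They were Ndufv2 (38.3 ± 1.84 and 30.1 ± 1.18 FPKM, -0.34) and Ndufa5 (19.4 ± 0.806 and 15.4 ± 0.835 FPKM, -0.32) of complex I, and Uqcrfs1 of complex III (112 ± 1.89 and 97.9 ± 2.69 FPKM, -0.20), with limma adjusted p-values of 0.0422, 0.0471 and 0.0497. All 3 calls were lost with any 1 library left out. The 13 mRNAs encoded in the mitochondrial genome gave 0 calls and a median of -0.03, and the share of FPKM from the mitochondrial genome was 13.03% to 13.12% with DMSO and 12.81% to 13.91% with stk. Polr2k, a small subunit of the RNA polymerases, fell from 14.9 ± 1.31 to 10.5 ± 0.833 FPKM (-0.47, limma adjusted p = 0.0471), the only call among 13 RNA polymerase II genes. Zfas1, a snoRNA host gene, fell from 26.5 ± 1.79 to 19.1 ± 0.932 FPKM (-0.45, limma adjusted p = 0.042), 1 of 17 hosts tested. Eif4g1, the long scaffold of cap-dependent translation, went the other way, from 97.1 ± 2.46 to 111 ± 0.324 FPKM (0.19, limma adjusted p = 0.0462), the only call among 27 translation factors.

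**Figure D3:**
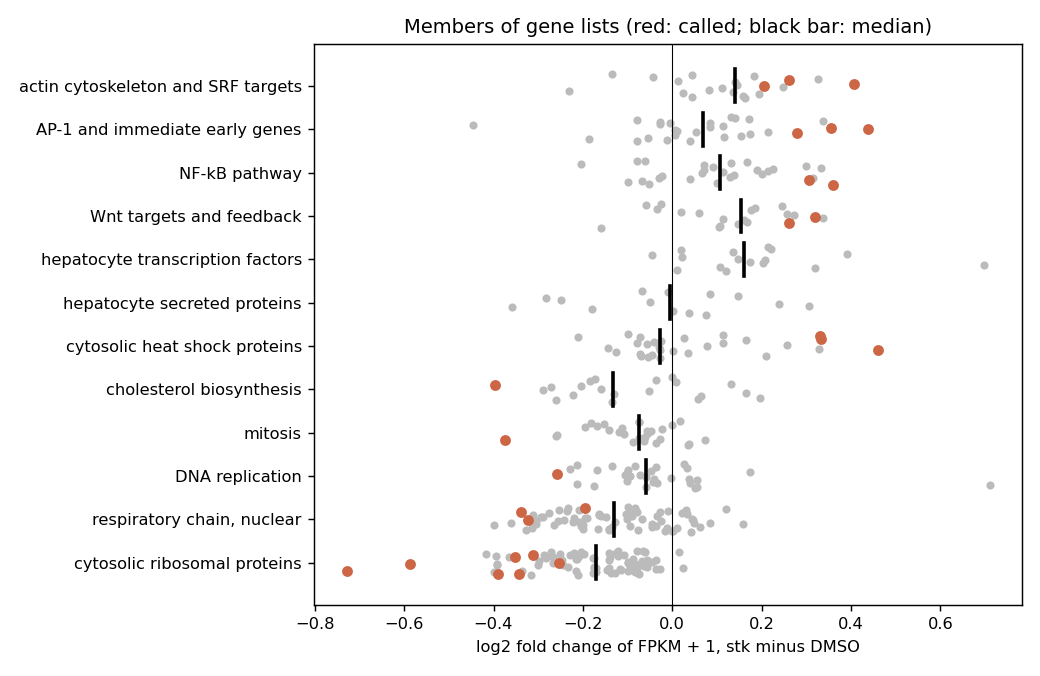
Log2 fold change of every tested member of 12 gene lists, with called members in red, the others in grey and the list median as a black bar. Ribosomal protein and respiratory chain genes lie mostly below 0 (medians -0.17 and -0.13), while liver transcription factors and Wnt genes lie mostly above it (0.16 and 0.15).

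These groups differ in transcript length, and the fold change moved with length over the whole table. Over 9887 tested protein-coding genes Spearman's rho of the fold change with exon length was 0.193, a description across genes that share the same 6 libraries. Of 222 protein-coding genes with under 1000 exon bases, 8 fell and 0 rose, and the median was -0.12. Of 1739 with 8000 bases or more, 1 fell and 16 rose, and the median was 0.04. Genes called higher had a median exon length of 5125.5 bases, those called lower 2463.5, and all tested protein-coding genes 4438. The median exon length was 1770 bases for the ribosomal protein list and 1737 for the respiratory chain list, but 5083 for the actin list and 4930 for the Wnt list. In CT26 the rho with length was 0.137 over 8872 genes. With the trend with length removed from each library, 88 genes were called, 42 higher and 46 lower, of which 74 were among the 175. Ribosomal protein genes then had 5 falls and a median of -0.13, and the respiratory chain list 1 fall and -0.08. Beyond this fit, the part of transcript length in the calls was not tested.

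**Figure D4:**
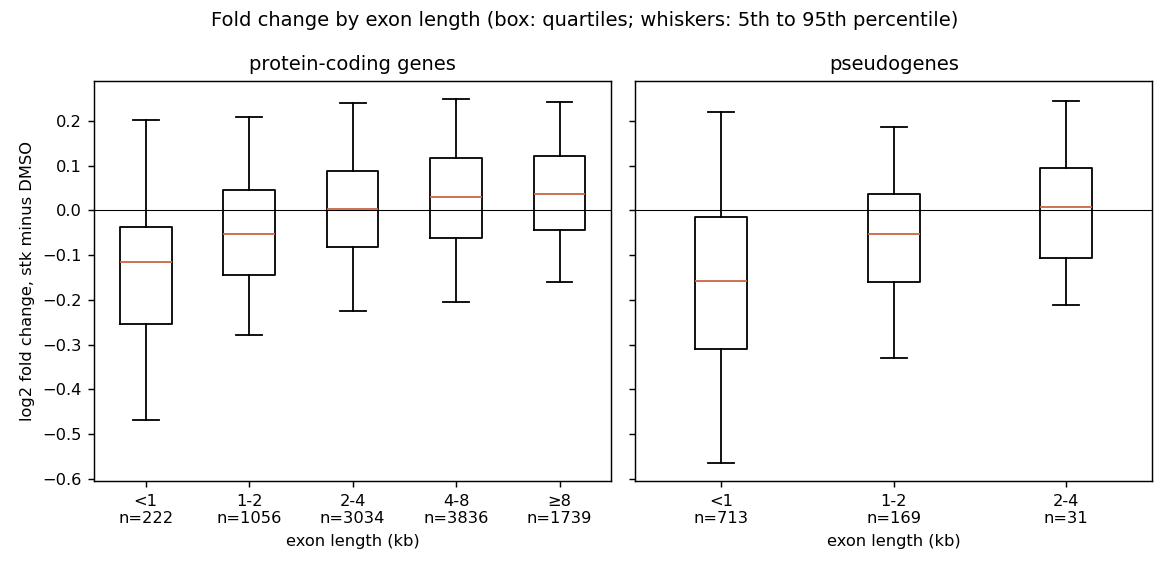
Log2 fold change by exon length for protein-coding genes on the left and pseudogenes on the right, with n genes per bin, boxes at the quartiles and whiskers from the 5th to the 95th percentile. The median of protein-coding genes climbs from -0.12 under 1 kb to 0.04 at 8 kb or more.

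Pseudogenes were called more often than protein-coding genes. Of 919 tested, 2 were called higher and 43 lower (4.9%), against 74 and 48 of 9887 protein-coding genes (1.23%), and the median fold changes were -0.13 and 0.01. The classes differ in exon length, with medians of 604 and 4438 bases. Under 1000 exon bases the gap was smaller, with 5.75% of 713 pseudogenes and 3.6% of 222 protein-coding genes called. Their median fold changes were -0.16 and -0.12. Each of the 43 had a match by blastn among protein-coding transcripts, with a median identity of 99.4%, and 13 were identical to it over the aligned bases. The match was a ribosomal protein gene for 29 of the 43 (67.4%), compared with 272 of all 919 tested (29.6%). The identity was as low as 78.8%. Fragments that cover no differing base cannot be assigned to the parent gene or to its copy by sequence, so the pseudogene values are uncertain. Several of the 43 share a match, and they match 34 distinct genes. For 40 of the 43 pseudogenes the matched gene had a fold change below 0, and for 5 it was called lower. Counted once per pseudogene, the median of the matched genes was -0.15 where that of the pseudogenes was -0.46. Most of the copies are short. The 3 printed here show how close they are, as annotated in GENCODE on GRCm38, with a base that differs from the matched transcript in capitals.
Gm10180: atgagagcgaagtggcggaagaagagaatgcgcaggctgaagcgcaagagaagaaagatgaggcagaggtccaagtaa
Gm3699: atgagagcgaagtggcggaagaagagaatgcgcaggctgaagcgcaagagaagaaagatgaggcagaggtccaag
Rpl39-ps: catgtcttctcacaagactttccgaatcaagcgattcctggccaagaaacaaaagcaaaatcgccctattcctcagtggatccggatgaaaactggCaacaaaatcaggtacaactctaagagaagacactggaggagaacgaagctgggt
Gm10180 (chromosome 9, 25101404 to 25101481) and Gm3699 (chromosome 10, 43456427 to 43456501) match Rpl41 at all of their 78 and 75 bases, and Rpl39-ps (chromosome 15, 102635038 to 102635188) differs from Rpl39 at 1 of 151.

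The values of these copies and of their matches can be set side by side. Gm10180 had 59.4, 49.5 and 46.3 FPKM with DMSO and 34.7, 26.7 and 27.0 with stk (-0.79, limma adjusted p = 0.0443), and Gm3699 fell from 36.6 ± 4.81 to 23.3 ± 1.17 FPKM (-0.62, adjusted p = 0.0422). Their match Rpl41 had 349, 348 and 358 FPKM with DMSO and 310, 297 and 270 with stk, which did not pass (-0.27, limma adjusted p = 0.0568). Rpl39-ps fell by 0.73 (limma adjusted p = 0.0422), beside the fall of 0.59 in Rpl39. Rpl7-ps7 fell from 9.31 ± 0.346 to 5.00 ± 1.09 FPKM (-0.80, limma adjusted p = 0.0462). A processed pseudogene without a symbol, ENSMUSG00000115407, fell from 2.62, 3.61 and 2.27 FPKM to 0.321, 0.82 and 0.714 FPKM (-1.24, limma adjusted p = 0.0418). Its stk values were all under 1 FPKM, so it too entered the test through the DMSO libraries alone. On the higher side, Gm8355, which matches the chaperone gene Hspa8 at 98.7% of bases, rose from 15.8 ± 1.27 to 21.5 ± 1.12 FPKM (0.42, limma adjusted p = 0.0456), as Hspa8 did. Gm6020 and Gm8797, annotated as protein-coding, fell by 0.90 and 0.65 (limma adjusted p = 0.0222 and 0.0462), and Gm6020 spans 66 bases.

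The largest called difference of any class was in Snora33, a small nucleolar RNA (chromosome 10, 23785347 to 23785475) inside the ribosomal protein gene Rps12 (23785183 to 23787275). It had 2.85, 3.98 and 6.41 FPKM with DMSO and 0.0986, 0.1 and 0.12 FPKM with stk (-2.24, SE 0.221, limma adjusted p = 0.0222). Every stk value was under 1 FPKM, so Snora33 entered the test through its DMSO libraries alone. Rps12 itself had 284, 286 and 301 FPKM with DMSO and 291, 290 and 257 with stk, with overlapping groups (-0.06, limma adjusted p = 0.576). How fragments that could come from either were assigned is not given in the sources used here, so the value of Snora33 is uncertain.

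The response of CT26 shows which of these changes differ between lines. In CT26, 85 of 11358 genes were called (0.748%). Both lines shared 1 higher gene, 1.3% of the calls of Hepa1-6 and 6.7% of those of CT26, and 19 lower genes, 19.6% and 27.1%. Of the 78 higher and 97 lower calls of Hepa1-6, 66 and 93 were tested in CT26. The fold change had the same sign in both lines for 126 of these 159 (79.2%), and for 58.8% of all 10045 genes tested in both. The difference between the responses was tested itself, and 39 of 12822 genes passed (0.304%). Of the 175 genes called in Hepa1-6, 21 were among them. For 5 of these, Cyp1a1, Inpp5j, Nkd1, Gm6020 and ENSMUSG00000115407, both CT26 means were below 1 FPKM, where the log2(FPKM + 1) scale leaves little room for a response, so they are not counted as differing. Of the other 16, 10 had a more positive and 6 a more negative fold change in Hepa1-6. Leaving out 1 library changed the 39 to between 7 (without CT26 stk replicate 1) and 28 (without Hepa1-6 stk replicate 2).

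C1s1 differed by -1.14 (SE 0.159, limma adjusted p = 0.026), with 2.65 FPKM in both groups of CT26. Id2 differed by -0.85 (SE 0.126, limma adjusted p = 0.0281), with 37.7 FPKM with DMSO and 43.7 with stk in CT26. Slc25a13 differed by -0.55 and Src by -0.52 (limma adjusted p = 0.0212 for each). In CT26 itself the fold changes of these genes were 0.00, 0.20, -0.06 and 0.11, and none passed. Dnajb1 differed by 0.54 (SE 0.0721, limma adjusted p = 0.0212) and Hspa8 by 0.50 (limma adjusted p = 0.0375), with fold changes of -0.08 and -0.16 in CT26 that did not pass there. The CT26 means of Cyp1a1 were 0.0182 FPKM with DMSO and 0.0727 with stk, and Gm6020 was listed at 0, so no comparison of their responses can be drawn.

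For Myadm the difference of 1.37 (SE 0.401) did not pass (limma adjusted p = 0.181). Its means in CT26 were 68.8 and 55.9 FPKM, and the SE of its fold change there was 0.356. Mt2 differed by -0.62 (limma adjusted p = 0.0689), with 377 and 370 FPKM in CT26. Among the named genes, the falls of Rpl22l1, Abca1, Rpl39 and Polr2k were called in both lines. In CT26 the fold changes of Rpl39 and Polr2k were -0.48 and -0.50 (limma adjusted p = 0.0313 and 0.017). Rpl22l1 had fold changes of -0.73 in Hepa1-6 and -0.67 in CT26 (difference -0.06, SE 0.0925, limma adjusted p = 0.809), and Abca1 -0.71 and -1.02 (difference 0.31, SE 0.133, adjusted p = 0.344).

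**Figure D5:**
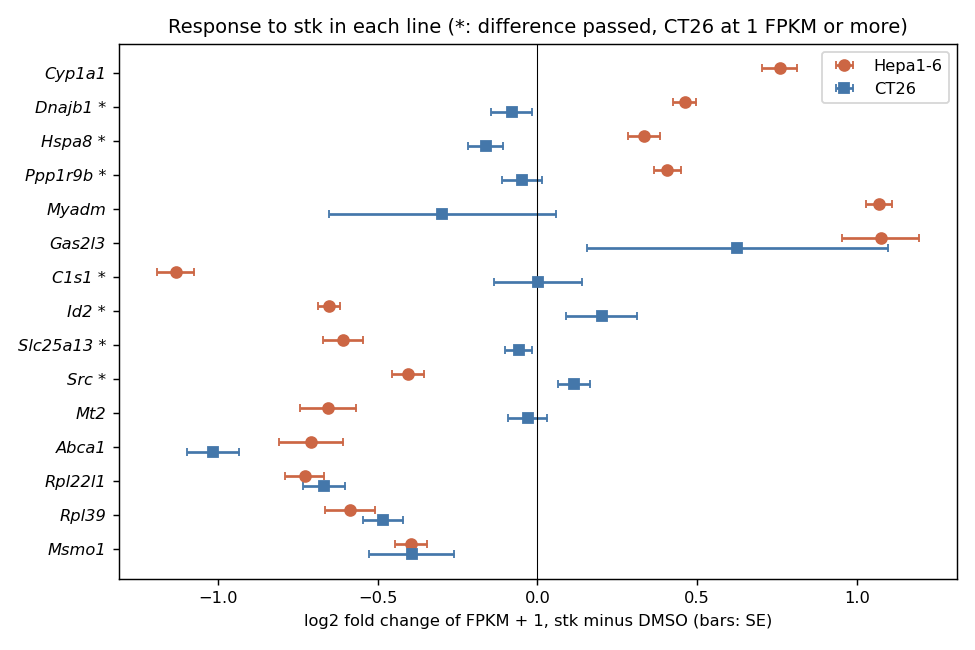
Log2 fold change of stk against DMSO with its SE for 15 genes in Hepa1-6 (red circles) and CT26 (blue squares), where an asterisk marks genes of at least 1 FPKM in CT26 whose difference between the lines passed the test. Cyp1a1 has no CT26 point because it was under the minimum for testing there. Abca1, Rpl22l1, Rpl39 and Msmo1 lie below 0 in both lines.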

How the data were processed

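RNA sequencing of cultured cells gave 1 table for the drug experiment, with FPKM values of 55335 genes that the authors deposited. Per the labels, total RNA was sequenced in pairs of reads and trimmed with Skewer. The submitters' processing notes name GRCm38, HISAT2, STAR, DESeq2 and edgeR. The step that each served, and any version, was not given in the sources used here. Columns were matched to labels by name; 12 further columns match no label and were not used.

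Genes that reached 1 FPKM in 3 or more libraries were tested on log2(FPKM + 1) with limma 3.58.1 (R 4.3.3) and a mean-variance trend, two-sided, with Benjamini-Hochberg adjustment over all genes tested at 0.05. The difference between lines is the interaction contrast in 1 model of 12 libraries. In 1 simulated data set of 11295 tested genes, 67, 67 and 66 genes were changed 1.2-fold, 1.5-fold and 2-fold on the FPKM + 1 scale. The Hepa1-6 test found 20.9%, 74.6% and 90.9% of them. The simulated noise was independent between genes, without shifts shared within a library, so these shares need not hold for the real libraries. GENCODE M21 gave gene class, coordinates and exon length for 99.7% of genes, and RefSeq the promoters. Pseudogenes were matched with blastn 2.17.0. FPKM divide by length, so short genes rest on fewer fragments.

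The comparison and the 48 gene lists (1143 of 1150 genes matched) were chosen with earlier results of these data known. Named genes are the 12 protein-coding calls with the largest fold change in each direction, every called list member, the 4 largest calls of other classes, up to 4 members of a list with the smallest p, the genes of the title and the 6 Hepa1-6 calls with the smallest adjusted p of the difference between lines. Relatives of called genes (C1ra, Id3, Mt1, Rpl41, Rps12, the copies of Rpl41 and Rpl39, Gm8355 and others) were named after their values were seen. Alternatives changed the pseudocount, filter, scaling, gene classes, length trend, replicate block, trend, model and libraries.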

Additional observations from a re-analysis of the deposited data

Results flagged for a closer look

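The response to stk differed between Hepa1-6 and CT26 for 7 of the named genes by the test of the difference itself (limma, adjusted p under 0.05, log2 scale, Hepa1-6 minus CT26). The difference was positive for Dnajb1 (0.542), Hspa8 (0.495) and Ppp1r9b (0.455), and negative for C1s1 (-1.14), Id2 (-0.854), Slc25a13 (-0.549) and Src (-0.519). A further 5 genes passed the same test but were below 1 FPKM in both CT26 groups, and entered it through Hepa1-6 alone. Their values, for Cyp1a1 (0.684), Inpp5j (0.505), Nkd1 (0.323), Gm6020 (-0.895) and ENSMUSG00000115407 (-1.48), mostly restate the change in Hepa1-6. No comparison of the responses of these genes between the lines can be drawn.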

How the results depend on the processing

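For stk against DMSO in Hepa1-6 (175 calls), no filter on low values gave 4, a minimum of 5 FPKM 473, protein-coding genes alone 92, removal of the length trend 88, limma without a trend 17 and a joint model of all libraries 928. Leaving out 1 library gave 8 to 59. Other pseudocounts gave 175 and 176, quantile normalization 260 and median scaling 235. For the difference between the lines (39 calls), leaving out 1 library gave 7 to 28, and the other settings without a block gave 30 to 50. The labels do not say that replicate numbers pair the samples, and deviations of same-numbered libraries correlated by -0.00582, 0.0229 and 0.0435. With the replicate number as a block, 4 genes were called in Hepa1-6 and 11 for the difference between the lines. Of 53 named calls, 49 were lost with no filter or with the block, 41 without the trend, 19 with the length trend removed and 37 to 49 of those tested with 1 library left out, and 0 changed direction. The cause was not tested. FPKM carry no counts, so no counting error could be given, and with 3 libraries a group an exact permutation test of 1 gene cannot fall below 0.1.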

Other observations

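Some genes fell to almost nothing in 1 library alone. Among 7136 genes with a median of at least 5 FPKM over the 6 Hepa1-6 libraries, 13 had exactly 1 library below 10% of that median, of which 0 were called by limma. They were spread over both groups, with 8 of them low in a DMSO library and 5 in an stk library. H1fx, a linker histone gene, was listed at 0 in DMSO replicate 1 and lay between 21.7 and 25.0 FPKM in the other 5 libraries. Exosc6, an RNA exosome subunit, was at 0.604 FPKM in DMSO replicate 2 and between 28.6 and 37.6 FPKM elsewhere. Kctd12 was listed at 0 in stk replicate 2, with 12.6 to 18.6 FPKM in the other libraries. These genes were chosen after their values were seen.

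Tead1, which encodes the DNA-binding partner of YAP, had one of the largest differences that missed the threshold, with 1.12, 1.81 and 0.872 FPKM with DMSO and 6.39, 3.49 and 3.64 with stk (1.26, limma adjusted p = 0.0529). Of the 16 tested YAP and TAZ targets and factors 0 were called, and their median was 0.06. Lists on immune recognition gave 0 calls each among 15 MHC class I genes (median -0.03), 18 interferon-stimulated genes (-0.03) and 10 immune checkpoint ligands (-0.06). In the same order, 5, 4 and 4 members were lower with stk without overlap (33.3%, 22.2% and 40.0%, against 14.6% over all genes). On the higher side there were 1, 2 and 2. Mesenchymal and matrix genes gave 0 calls among 19 (median 0.13), with Thbs1 at 86.7 and 101 FPKM (0.22, limma adjusted p = 0.0529). Of the 19, 10 were higher without overlap (52.6% against 16.2% over all genes) and 1 was lower.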
